A study of Mus musculus with 16 samples.

Results

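The regions described here are 500 stretches of 500 bp on mouse chromosomes 1 to 19 (build mm8) where reads of the Myc libraries of lipopolysaccharide-treated B cells piled up and reads of RNA polymerase II (Pol2) did not. To be chosen, a bin had to hold 6 or more reads summed over the 2 Myc libraries of those cells and at most 2 reads summed over the 2 Pol2 libraries, without and with the compound 10058-F4. Of 4356268 bins with a read in any library, 18875 met both limits. They were ranked by the log2 ratio of pooled Myc to pooled IgG signal in RPM (reads divided by the size of the libraries), after adding 0.1 RPM to either side, and the 500 highest were taken, ties going by position. The other 18375 bins that met the limits, called lower-ranked bins here, served for comparison. So did 500 bins taken by the same ranking from 24285 bins with 6 or more Myc reads and 3 or more Pol2 reads, called bins with Pol2. The question put to the 500 chosen bins was whether Myc recurred there in libraries that the choice had not used.

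By its title, the series asked whether Myc amplifies the expression of genes in general. Myc carrying the green fluorescent protein EGFP was precipitated from mouse spleen B and T cells with an antibody to EGFP (Clontech 632460), Pol2 with Abcam ab5408, and control chromatin with the non-specific IgG sc-2025 of Santa Cruz, followed by sequencing (ChIP-seq). Of the 16 libraries, B cells activated for 4 h by 25 µg/ml of the bacterial product lipopolysaccharide (LPS; B4) had 2 Myc libraries, 1 Pol2 library and 3 IgG libraries. B4 cells that also received 10058-F4, a compound that blocks the pairing of Myc with Max, had 1 Myc, 1 Pol2 and 2 IgG libraries. T cells given 7.5 µg/ml of the lectin concanavalin A for 4 h (T4) or for 14 h (T14) had 1 Myc and 1 IgG library at each time, and so had untreated B cells (B0). The labels give no genotype, strain, age or sex and do not say which libraries came from separate animals or cultures, so spread between libraries may be technical. The titles of the B4 Pol2 library and of B4 IgG replicate 2 carry an unexplained mark, wt. Read as wild type, it would set the cells of these libraries apart from the cells with tagged Myc.

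Myc binds DNA as a dimer with Max, best at the E-box motif CACGTG, and in activated lymphocytes it is known to sit mainly at promoters of transcribed genes, where Pol2 is loaded. Pol2 marks promoters and gene bodies that are being read. Bins with Myc reads but without Pol2 reads are therefore of interest as possible sites of Myc away from active transcription. The genes and the sequence at these positions were not analysed here, since positions are in build mm8 and no genome or annotation of that build was used.

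Depth on chromosomes 1 to 19 ran from 1278471 reads in B4 IgG replicate 2 to 7433203 reads in B0 Myc, with 2141694 and 3099793 reads in B4 Myc replicates 1 and 2. Reads were 24 to 30 bases long in B4 Myc replicate 1 and B4 IgG replicate 1, 25 in the T cell libraries and 45 in the others. The B4 Myc replicates shared 3628 read positions, 0.169% of replicate 1 and 0.117% of replicate 2, and were counted as separate libraries. For T14 the titles and the names of the deposited files give opposite antibodies, so these are written as the library labelled T14 Myc and the library labelled T14 IgG, and their values are given both ways round. Intervals below are 95% intervals that cover counting error only.

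The chosen bins stood on few reads. They held 7 to 12 Myc reads each over both B4 Myc libraries, and all 500 held 0 reads in the 3 B4 IgG libraries, as did 1839 of the 18875 bins that met the limits. Only 30 chosen bins had 9 or more Myc reads, 116 had 8, and 354 had exactly 7. A count of 7 has a Poisson interval of 2.81 to 14.4. The genome mean per bin was 1.06 reads in the pooled Myc libraries and 1.98 in the pooled IgG libraries. These means are over all bins, with or without a read. Bins with a read in any library stood at 1.13 times the genome mean in every library. Set against a floor of 3 reads over the 3 pooled IgG libraries, a bin with 12 Myc reads was 7.45-fold higher and one with 7 reads 4.35-fold higher in Myc than in IgG. Here the Myc count was taken as exact, so with its counting error these folds are not lower bounds. These values chose the bins and are given as a description.

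Pol2 was low in the chosen bins by the rule, but so it was in most of the genome. Pol2 reads summed over both libraries numbered 0 in 236 chosen bins, 1 in 159 and 2 in 105, a mean of 0.738 reads against a genome mean of 1.52. Over the whole of chromosomes 1 to 19, 87.8% of bins had at most 2 Pol2 reads. At the depth of these libraries, having at most 2 reads does not show that Pol2 was absent.

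The first and the last chosen bin differed little. The first, chr4:102700001-102700500, held 6 and 6 reads in B4 Myc replicates 1 and 2 and 0, 0 and 0 in the B4 IgG libraries, a log2 ratio of 4.58 on the scale with 0.1 RPM added. The other bins of the top 5 were chr18:6742501-6743000 with 11 and 1 Myc reads, chr1:82842001-82842500 with 9 and 1, chr2:118958001-118958500 with 10 and 0, and chr4:62949001-62949500 with 6 and 4. In 3 of these 5, nearly all reads came from replicate 1. The last 3 inside, chr17:79999001-79999500, chr17:82055501-82056000 and chr17:90432001-90432500, held 2 and 5, 2 and 5, and 3 and 4 Myc reads. The first 3 outside, chr18:37306001-37306500, chr18:38181001-38181500 and chr18:46167001-46167500, held 2 and 5, 5 and 2, and 4 and 3. All 6 had a log2 ratio of 3.84, so position alone decided between them. All 354 chosen bins with 7 Myc reads shared that ratio with 20 more bins, which were not taken and lay on chromosomes 18 (11 bins) and 19 (9 bins). Chromosomes 18 and 19 therefore held only 8 and 3 chosen bins, against 16 to 42 on each of the others.

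The B4 Myc replicates did not contribute evenly at each bin. Summed over the chosen bins, replicate 1 gave 2066 reads and replicate 2 gave 1622, although replicate 1 was the shallower library. Scaled to library size, replicate 1 was the higher in 388 chosen bins. Replicate 1 had 0 reads in 13 chosen bins and replicate 2 had 0 in 25. Both replicates held 3 or more reads in 231 bins (46.2%) and 2 or more in 373. Since the sum had to reach 7, a low count in one library went with a high count in the other by construction.

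**Figure D1:**
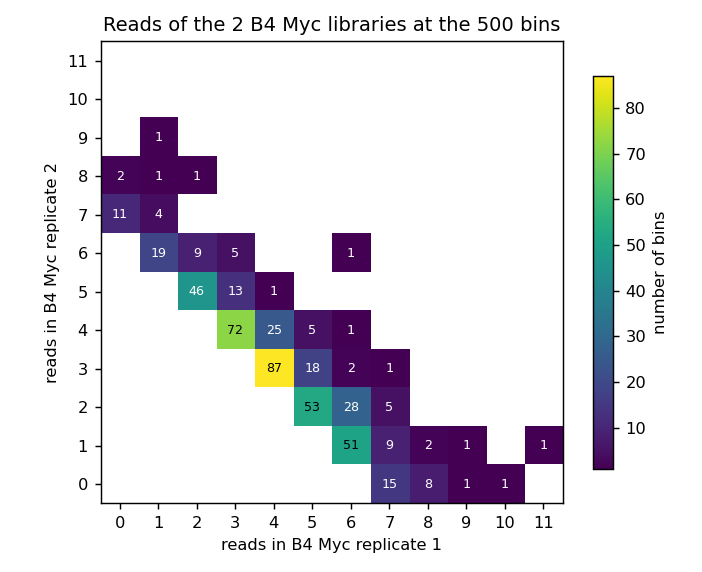
Number of chosen bins (colour and printed number) by reads in B4 Myc replicate 1 (horizontal axis, reads per 500 bp bin) and B4 Myc replicate 2 (vertical axis, reads per 500 bp bin). Most bins lie on the diagonal of 7 reads in all, and the 2 bins with 12 reads, 6 and 6 in 1 case and 11 and 1 in the other, lie farthest above it.

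In the libraries that chose them, the bins stood well above the genome mean. B4 Myc replicate 1 had 9.50 times its genome mean per bin there (9.10 to 9.92), against 8.06 times in the lower-ranked bins and 16.8 times in the bins with Pol2. B4 Myc replicate 2 had 5.15 times its genome mean (4.91 to 5.41), against 4.70 times in the lower-ranked bins and 8.74 times in the bins with Pol2. The Pol2 libraries had 0.539 times their genome mean in B4 and 0.459 times in B4 with 10058-F4, against 27.6 and 34.4 times in the bins with Pol2. All of these levels follow from the choice.

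In untreated B cells, a state the choice did not use, the excess of Myc was not seen. There the chosen bins held 1038 Myc reads and 572 IgG reads, which is 1.38 times the genome mean in Myc (1.29 to 1.46) and 1.37 times in IgG (1.26 to 1.49). Myc and IgG were thus raised alike, and the pooled fold of Myc over IgG was 1.00 (0.905 to 1.11). The lower-ranked bins gave the same fold, 1.00 (0.986 to 1.02), and the bins with Pol2 gave 1.29 (1.20 to 1.37). Per chosen bin, B0 Myc reads ran from 0 to 12 with a median of 2, and B0 IgG reads from 0 to 6 with a median of 1.

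B4 cells with 10058-F4 gave the same picture in the chosen bins. These held 442 Myc reads and 1004 reads in the 2 IgG libraries, 1.31 times the genome mean in Myc (1.19 to 1.44) and 1.38 and 1.37 times in IgG replicates 1 and 2. The fold of Myc over IgG was 0.957 (0.854 to 1.07) in the chosen bins and 1.06 (1.04 to 1.08) in the lower-ranked bins, intervals that overlap. In the bins with Pol2 it was 1.47 (1.37 to 1.58). Even the bins with Pol2 thus had folds of only 1.29 in B0 and 1.47 with 10058-F4, against 3.17 in T4. A fold near 1 in B0 or with 10058-F4 therefore says little about Myc in B4. Every one of the 500 chosen bins had between 0 and 5 Myc reads in this library, with a median of 1.

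T4 was the state in which the chosen bins had more Myc than IgG. They held 696 T4 Myc reads and 213 T4 IgG reads, a fold of 1.31 (1.12 to 1.53), against 1.05 (1.03 to 1.08) in the lower-ranked bins and 3.17 (2.83 to 3.55) in the bins with Pol2. The T4 Myc level itself was not above that of the lower-ranked bins: 1.55 times the genome mean (1.43 to 1.67) in the chosen bins and 1.62 times (1.60 to 1.64) in the lower-ranked bins. The T4 IgG level was the one that differed, at 1.18 times the genome mean (1.03 to 1.35) in the chosen bins and 1.54 times (1.51 to 1.57) in the lower-ranked bins. T4 IgG was also the shallowest library of the states outside B4, with 1774572 reads. Whether its low level at the chosen bins accounts for the fold was not tested. T4 Myc reads per chosen bin ran from 0 to 13 with a median of 1, and 151 bins held 0. The direction of the T4 fold also depended on which B4 Myc library chose the bins: it was 0.952 for 500 bins chosen without B4 Myc replicate 1 and 1.17 for 500 chosen without replicate 2.

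The chosen bins were also split by their support in the B4 Myc replicates. At the 231 chosen bins with 3 or more reads in both B4 Myc replicates, T4 held 278 Myc and 108 IgG reads, a fold of 1.03 (0.823 to 1.30). At the other 269, T4 held 418 Myc and 105 IgG reads, a fold of 1.60 (1.28 to 1.99). The intervals of these classes overlap slightly, and the difference between them was not tested. In B0 the fold was 0.914 (0.786 to 1.06) at the 231 bins and 1.09 (0.944 to 1.26) at the 269. With 10058-F4 it was 0.861 (0.722 to 1.02) at the 231 bins and 1.04 (0.892 to 1.21) at the 269. In none of these 3 states was the fold higher at the 231 bins than at the 269.

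The T14 libraries showed no excess in the chosen bins under either reading of their labels. The library labelled T14 Myc held 357 reads and the library labelled T14 IgG held 467, levels of 1.50 (1.35 to 1.67) and 1.45 (1.32 to 1.59) times the genome mean. The fold was 1.04 (0.900 to 1.19) as titled and 0.966 (0.840 to 1.11) with the labels exchanged. In the lower-ranked bins it was 0.984 as titled and 1.02 exchanged.

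**Figure D2:**
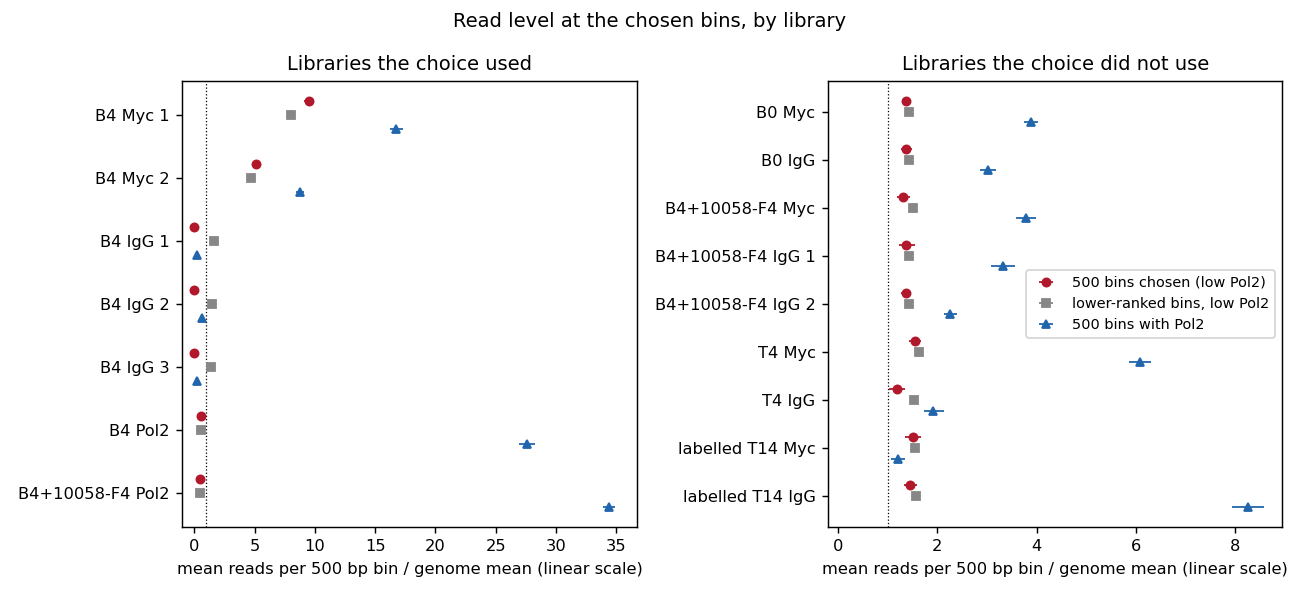
Mean reads per 500 bp bin divided by the library's genome mean (horizontal axes, linear scale, no unit, with different ranges; dotted line at 1), with 95% Poisson intervals, in the 500 chosen bins (red), the lower-ranked bins (grey) and the 500 bins with Pol2 (blue). Left, the libraries that the choice used; right, those it did not use, where the chosen bins lie between 1.18 and 1.55 in Myc and IgG libraries alike.

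Counted bin by bin, the chosen bins were past the fold about as often as the lower-ranked ones. A bin was counted where it held at least 3 Myc reads and Myc was at least 2-fold over IgG of the same state, with 0.1 RPM added to both. With 1 Myc library in each state this is a count and not a test. In B0, 66 chosen bins (13.2%, Clopper-Pearson interval 10.4 to 16.5) were past the fold, against 12.5% of lower-ranked bins, 26% of bins with Pol2 and 9.89% of all bins with a read. With 10058-F4 the count was 25 chosen bins (5.0%, 3.26 to 7.29), against 6.12% of lower-ranked bins, 21% of bins with Pol2 and 3.89% of all bins. In T4 it was 61 chosen bins (12.2%, 9.46 to 15.4), against 10.5% of lower-ranked bins, 40% of bins with Pol2 and 6.79% of all bins. The interval of the chosen bins held the share of the lower-ranked bins in each of these 3 states. In T14, 16 chosen bins (3.2%, 1.84 to 5.14) passed as titled, against 4.29% of lower-ranked bins, 1.4% of bins with Pol2 and 2.4% of all bins. With the T14 labels exchanged 21 (4.2%, 2.62 to 6.35) passed, against 5.55% of lower-ranked bins, 39.4% of bins with Pol2 and 3.56% of all bins. Of all bins with at most 2 Pol2 reads, whatever their B4 Myc reads, 8.42% passed in B0, 3.18% with 10058-F4, 5.71% in T4, 2.48% in T14 as titled and 2.76% exchanged. Counting IgG over Myc in the same way gave 39 chosen bins (7.8%) in B0, against 7.99% of lower-ranked bins and 6.01% of all bins. It gave 76 (15.2%) with 10058-F4, against 13% and 11%, and 8 (1.6%) in T4, against 2.34% and 1.62%. Of the bins with Pol2, 10.4% passed this reverse count in B0, 12.6% with 10058-F4 and 2.0% in T4. Bins with Pol2 also held more reads, with a mean of 5.86 B0 Myc reads against 2.08 in the chosen bins. They could therefore reach the limit of 3 reads more easily.

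**Figure D3:**
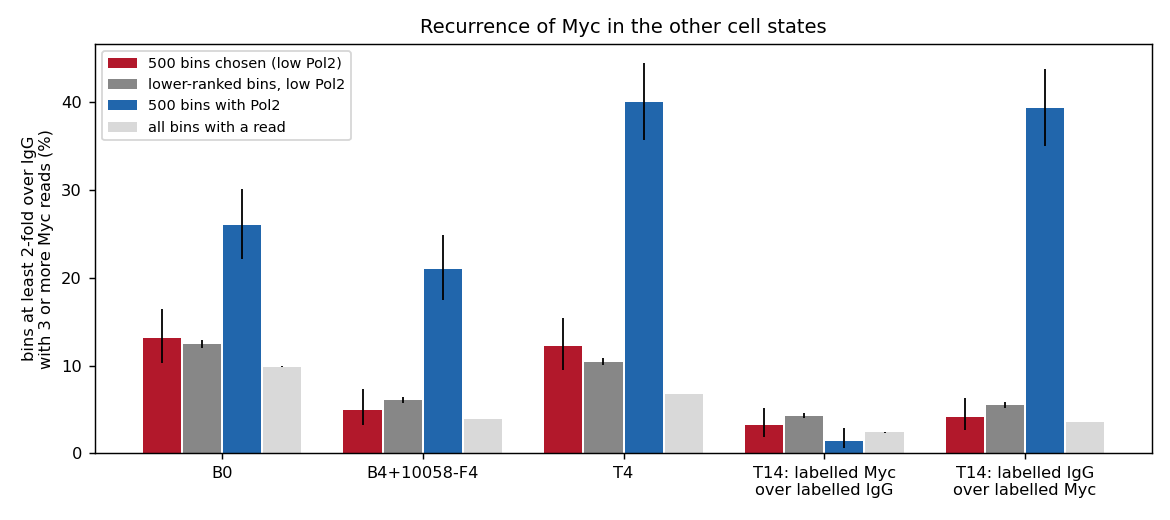
Share of bins (vertical axis, percent) with at least 3 Myc reads and at least 2-fold over IgG, by cell state (horizontal axis), with Clopper-Pearson 95% intervals, in the 500 chosen bins (red), the lower-ranked bins (dark grey), the 500 bins with Pol2 (blue) and all bins with a read (light grey). The chosen bins reach 13.2% in B0, 5.0% with 10058-F4 and 12.2% in T4, close to the dark grey bars and below the blue bars of 26%, 21% and 40%.

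Few chosen bins passed in more than one state. Of the 500, 361 passed in 0 of the 3 states B0, B4 with 10058-F4 and T4, 127 in 1, 11 in 2 and 1 in 3. The 12 bins with 2 or more states are 2.4% of the chosen bins, against 2.91% of the lower-ranked bins, 21.8% of the bins with Pol2, 1.29% of all bins with at most 2 Pol2 reads and 1.88% of all bins with a read. In 24 chosen bins the 3 Myc libraries together held 0 reads.

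The bin that passed in all 3 states, chr2:181041501-181042000, also had the highest mean log2 fold (2.54) of the 159 chosen bins with 10 or more reads in these states. It held 5 and 2 reads in the B4 Myc replicates. Outside B4 it had 5 Myc reads and 0 IgG reads in B0, 4 Myc reads and 1 and 2 IgG reads with 10058-F4, and 4 Myc reads and 0 IgG reads in T4. The libraries labelled T14 Myc and T14 IgG held 1 and 3 reads. It lay 74500 bases from the nearest bin with 10 or more Pol2 reads. The bins next in order were chr9:42748501-42749000 (mean log2 fold 2.24), chr8:11943501-11944000 (2.02), chr17:11687001-11687500 (1.92) and chr10:81773001-81773500 (1.89). In this order the 5 bins had ranks 199, 342, 91, 484 and 366 in the choice, where position alone set the ranks of bins with equal Myc reads.

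The lowest chosen bins were about as far from zero as the highest. The lowest mean log2 fold, -2.38, was at chr11:55533501-55534000, with 0 Myc and 6 IgG reads in B0, 0 Myc and 0 and 1 IgG reads with 10058-F4, and 1 Myc and 2 IgG reads in T4. The next were chr9:22776001-22776500 (-2.16), chr15:28619001-28619500 (-1.83), chr2:127779501-127780000 (-1.78) and chr10:69860001-69860500 (-1.70). In this order the 5 lowest bins had ranks 382, 340, 26, 49 and 364 in the choice. Of the 5 highest-ranked bins of the choice, 2 passed in 1 of these 3 states each and 3 in 0. The first of all, chr4:102700001-102700500, had 5 Myc and 5 IgG reads in B0, 3 Myc and 0 and 0 IgG reads with 10058-F4, and 0 Myc and 0 IgG reads in T4.

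A test over all bins found none of the chosen bins higher in Myc. The 3 Myc and 4 IgG libraries of B0, B4 with 10058-F4 and T4 were fitted with limma with the cell state as a term, over the 335132 bins that averaged at least 2 reads per library. At an adjusted p below 0.05, limma called 0 bins higher in Myc (0%) and 2 lower (0.000597%). Below an unadjusted p of 0.05 there were 9197 higher (2.74%) and 7709 lower (2.3%). The same fit by limma-trend called 5 higher and 0 lower. Of the 500 chosen bins, 56 had enough reads to be tested. Among the 56, 0 were called in either direction, 3 were higher and 1 lower below the unadjusted threshold, and the smallest adjusted p was 0.962 by limma. The 3 were chr10:81773001-81773500 (log2 fold 1.94 ± 0.82, SE), chr2:181041501-181042000 (1.69 ± 0.76) and chr9:42748501-42749000 (1.55 ± 0.73), named after their values were seen. Of the lower-ranked bins, 2623 were tested, and 55 were higher and 47 lower below the unadjusted threshold. The median log2 fold was 0.32 over the 56 chosen bins, 36 of them positive, against 0.0059 over all bins tested. This difference in medians was not tested. The 3 Myc libraries come from 3 states and the fit had 3 residual degrees of freedom, so 0 calls does not show that Myc and IgG were equal. Of the 500 bins with Pol2, 325 were tested, 0 were called and 70 were higher below the unadjusted threshold, and 3 of the 5 bins that limma-trend called higher were among them.

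The nearest test of recurrence lay within B4 itself, since bins can be chosen from either Myc library and read in the other. Chosen anew from replicate 1, with 3 or more reads there and otherwise by the same rule, 500 bins had 12.8 times the genome mean in replicate 1. In replicate 2, which had no part in the choice, the same bins had 1.15 times the genome mean (1.03 to 1.27), against 1.23 times in the lower-ranked bins of that choice. Chosen from replicate 2, where they had 8.40 times the genome mean, 500 bins had 1.09 times in replicate 1 (0.956 to 1.24), against 1.20 times in the lower-ranked bins. Bins with 3 or more Pol2 reads chosen in the same way kept 4.58 times the genome mean in replicate 2 and 5.04 times in replicate 1. All bins with a read had 1.13 times the genome mean in either library. The low-Pol2 bins chosen from either library thus lay near that level in the other. Bins with Pol2 chosen alike lay several-fold above it. All B4 IgG libraries had a part in these choices. Chosen against IgG replicate 1 alone, low-Pol2 bins had 1.28 times (1.16 to 1.41) in replicate 2 and 1.26 times (1.12 to 1.42) in replicate 1. The lower-ranked bins of those choices had 1.23 and 1.19 times, so the order of chosen and lower-ranked bins depended on the IgG libraries used. Replicate 2 held 0 reads in 47.6% of the bins chosen from replicate 1, and replicate 1 held 0 in 66.8% of those chosen from replicate 2.

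**Figure D4:**
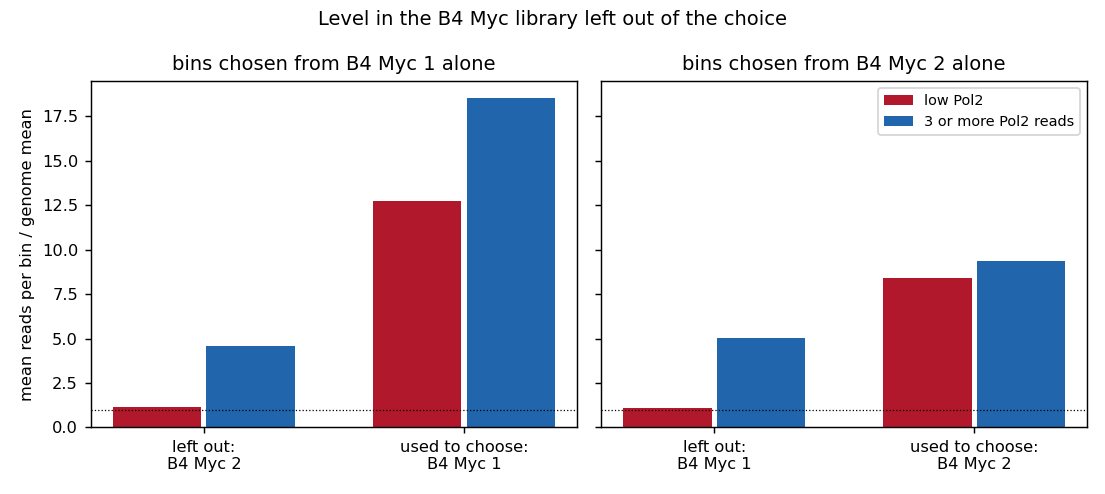
Mean reads per 500 bp bin divided by the library's genome mean (vertical axes, linear scale, no unit; dotted line at 1) at 500 bins with low Pol2 (red) and 500 bins with 3 or more Pol2 reads (blue), chosen from B4 Myc replicate 1 (left) or replicate 2 (right). In the library left out of the choice the red bars stand at 1.15 and 1.09 and the blue bars at 4.58 and 5.04. All bins with a read have 1.13 in either library (not drawn).

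The IgG libraries were also split between choosing and reading, a comparison added after the data were seen. Bins chosen from Myc replicate 1 against IgG replicate 1 had a fold of 0.986 (0.873 to 1.11) for Myc replicate 2 over IgG replicates 2 and 3. Chosen from Myc replicate 1 against IgG replicates 2 and 3, they had 0.632 (0.557 to 0.717) for Myc replicate 2 over IgG replicate 1, the library whose title and read length match those of Myc replicate 1. Chosen from Myc replicate 2, they had 0.903 (0.786 to 1.03) over IgG replicates 2 and 3 and 0.875 (0.747 to 1.02) over IgG replicate 1. None of these 4 folds was above 1, and for bins with Pol2 the same 4 were 2.90, 1.17, 4.05 and 2.72. The titles also match IgG replicate 1 with Myc replicate 1 and IgG replicate 3 with Myc replicate 2, the repeats. With each Myc library set only against its own match, bins chosen from replicate 1 had a fold of 1.04 (0.916 to 1.18) in replicate 2 and bins chosen from replicate 2 had 0.913 (0.784 to 1.06) in replicate 1. For bins with Pol2 these folds were 3.67 and 4.44.

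The excess of B4 Myc reads in the chosen bins stopped at the edges of the bins. In the bins directly on either side, B4 Myc stood at 1.19 times the genome mean in replicate 1 (1.09 to 1.30) and 1.21 times in replicate 2 (1.13 to 1.30). At 2 to 10 bins away the levels were 1.16 and 1.12 times, near the 1.13 times of all bins with a read. Directly beside the lower-ranked bins they were higher, at 1.32 times in replicate 1 and 1.30 times in replicate 2. The directly neighbouring bins of the bins with Pol2 had 5.02 times in replicate 1 and 3.19 times in replicate 2. The IgG libraries of B4 were raised there too, at 1.89, 3.07 and 1.54 times in replicates 1, 2 and 3. The B4 IgG libraries, at 0 in the chosen bins, stood at 1.16, 1.03 and 1.16 times the genome mean directly beside them. The ranking selects for high Myc and empty IgG in the bin itself, so the contrast at the bin itself is a description. The reads of the neighbouring bins had no part in the choice. Pol2 was below the genome mean in the neighbouring bins as well, at 0.856 times in B4 and 0.728 times with 10058-F4, and at 1.05 and 1.01 times further out. Directly beside the lower-ranked bins Pol2 was also below it, at 0.949 and 0.780 times. No chosen bins were neighbours of each other (0 pairs), and 1 pair lay within 5 kb.

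**Figure D5:**
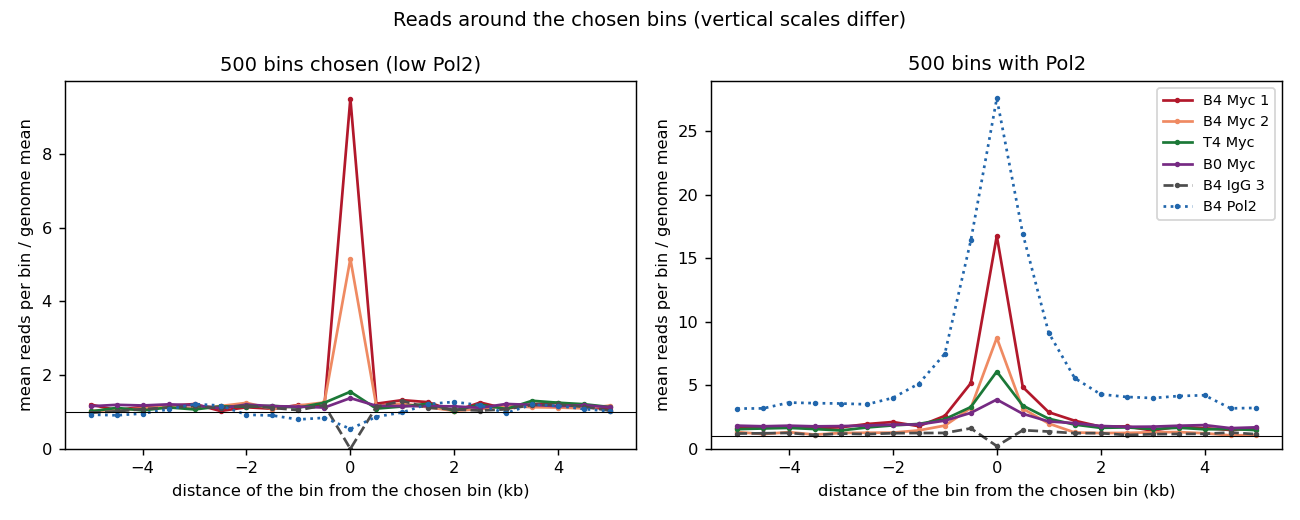
Mean reads per 500 bp bin divided by the library's genome mean (vertical axes, linear scale, no unit, with different ranges) by distance from the chosen bin (horizontal axes, kb) around the 500 chosen bins (left) and the 500 bins with Pol2 (right). Around the chosen bins B4 Myc falls to 1.19 and 1.21 times in the directly neighbouring bins, against 5.02 and 3.19 times around the bins with Pol2, and T4 Myc and B0 Myc have maxima of 1.55 and 1.38 times at the chosen bins. At the chosen bins T4 IgG and B0 IgG, which are not drawn, have 1.18 and 1.37 times.

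The strands of the reads were also compared, since reads from the ends of fragments around a bound site lie upstream of it on the plus strand and downstream on the minus strand. In 1 kb around the chosen bins, over those with reads of both strands there, the median distance from the plus-strand to the minus-strand midpoints was 25.0 bases (8.8 to 40.7) in B4 Myc replicate 1 and 42.8 bases (15.5 to 81.5) in replicate 2. It was 40.7 and 41.7 bases in the lower-ranked bins and 53.6 (35.5 to 63.3) and 57.3 (45.1 to 75.3) bases in the bins with Pol2. The chosen bins did not stand apart from the lower-ranked ones beyond these intervals. In T4 Myc, which the choice did not use, the distance at the chosen bins was 29.3 bases (-8 to 66.2). In B0 Myc it was 11.5 bases (-21.8 to 31.1). Both intervals spanned negative and positive values. The lower-ranked bins had 18.4 bases in T4 Myc and 31.8 in B0 Myc, and the bins with Pol2 had 47.3 and 27.6. The IgG libraries were not measured in this way, so these distances have no control. Reads of both strands were present in 68.2% of chosen bins in B4 Myc replicate 1 and 63.6% in B4 Myc replicate 2. In the lower-ranked bins these shares were 59.98% and 62.3%, and in the bins with Pol2 they were 84.8% and 75.6%. The differences between these shares were not tested.

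Their distance from Pol2 was that of other low-Pol2 bins with Myc reads. The median distance from a chosen bin to the nearest bin with 10 or more Pol2 reads was 75 kb, against 70 kb for the lower-ranked bins and 146 kb for all bins with at most 2 Pol2 reads. Within 2 kb of such a bin lay 5.2% of the chosen bins and 6.09% of the lower-ranked bins, and within 5 kb 13.4% and 12.6%. At the 26 chosen bins within 2 kb, the T4 fold of Myc over IgG was 1.32 (0.711 to 2.59), at the 80 between 2 and 10 kb 1.50 (1.01 to 2.29), and at the 394 farther away 1.27 (1.07 to 1.52). The intervals of these 3 distance classes overlapped. In B0 the folds of the same classes were 0.896, 1.14 and 0.979, and with 10058-F4 they were 0.836, 0.736 and 1.03.

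Chosen bins with more Myc reads in B4 did not show a higher fold elsewhere. At the 146 chosen bins with 8 or more Myc reads the fold of Myc over IgG was 0.980 (0.812 to 1.19) in B0, 0.931 (0.749 to 1.15) with 10058-F4 and 1.24 (0.942 to 1.66) in T4. At the 354 with 7 reads it was 1.01 (0.895 to 1.15) in B0, 0.968 (0.845 to 1.11) with 10058-F4 and 1.34 (1.11 to 1.62) in T4. In each state the intervals of these classes overlapped, and the difference between the classes was not tested.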

How the data were processed

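The authors deposited a BED list of aligned reads for each library, holding the position, length and strand of every read and no counts per region. The submitters' processing notes name CASAVA 1.0, Bowtie 0.12.7 and build mm8, without settings. Positions may start at 0 or 1, which is not stated, so coordinates may be off by 1 base. The chosen bins and all comparisons were picked with earlier results of these data known.

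Reads of a library with the same strand and 5′ end were reduced to 1, which removed 5.29% of reads in B4 Myc replicate 1, 0.0808% in B4 IgG replicate 1 and 0 elsewhere. Read midpoints on chromosomes 1 to 19 were counted in 500 bp bins and scaled to the library's reads on these chromosomes (RPM). Replicate numbers follow accession order. Folds of Myc over IgG are ratios of summed RPM with exact binomial intervals, levels have Poisson intervals and shares Clopper-Pearson intervals, all at 95%.

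The test across bins used limma 3.58.1 (R 4.3.3) with voom weights, the cell state as a term and Benjamini-Hochberg adjustment over all bins tested. Regions named are the 5 of highest rank, the 5 highest and 5 lowest by mean log2 fold over B0, B4 with 10058-F4 and T4 among those with 10 or more reads in these states, and the 3 on either side of the last rank. Python 3.11.15, numpy 2.4.6, scipy 1.17.1, pandas 2.3.3 and matplotlib 3.10.9 were used. Alternatives covered read duplicates, read position, pseudocounts, libraries left out, Pol2 and Myc limits, number of bins, call limits, window, depth, scaling and the design of the fit.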

Additional observations from a re-analysis of the deposited data

Results flagged for a closer look

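The library labelled T14 IgG exceeded the library labelled T14 Myc at the 500 bins with Pol2, with 2659 reads against 286, a fold of 6.86 (6.07 to 7.78) after scaling to library size. It was noted because a library labelled as control carried a signal there above the library labelled Myc. At the 500 chosen bins the same fold was 0.966 (0.840 to 1.11).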

How the results depend on the processing

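Which bins were chosen depended on the processing. Of the 500, 254 were chosen with reads moved toward the fragment centre, 236 with 0 Pol2 reads, 8 of the 209 bins with 10 or more Myc reads, 250 of 250 when only 250 were taken, and 91 to 333 when 1 B4 Myc or IgG library was left out. The pooled fold of Myc over IgG with 0 Pol2 reads was 1.07 in T4 and 1.35 in T14 as titled. With 10 or more Myc reads it was 1.28 with 10058-F4, 0.940 in T4 and 0.782 in T14 as titled. Against the genome mean in place of IgG it was 1.38 in B0, 1.31 with 10058-F4, 1.55 in T4 and 1.50 in T14 as titled. Leaving out libraries, it ran from 0.921 to 1.05 in B0, 0.935 to 1.18 with 10058-F4, 0.952 to 1.25 in T4 and 0.863 to 1.28 in T14. The T4 value of 0.952 came without B4 Myc replicate 1, so the T4 fold of 1.31 did not hold its direction there. With 0 Pol2 reads, the share of chosen bins past the fold was 10% in B0, 2.2% with 10058-F4, 8.0% in T4 and 2.0% in T14 exchanged. All bins gave 9.89%, 3.89%, 6.79% and 3.56% there. With 10 or more Myc reads the share was 14.4% with 10058-F4, 20.6% in T4, 6.70% in T14 as titled and 21.1% exchanged. All bins gave 3.89%, 6.79%, 2.4% and 3.56%. No share of lower-ranked bins is given for these choices, so they do not show whether the bins taken stood apart from similar bins. At 4-fold the share of the 500 chosen bins was 9.0% in B0, 3.2% with 10058-F4 and 1.4% in T14 as titled, against 8.48%, 3.28% and 2.39% of lower-ranked bins and 7.31%, 2.24% and 1.48% of all bins. With at least 5 reads it was 6.8% in B0, 1.0% with 10058-F4, 1.8% in T4, 0.4% in T14 as titled and 0.4% exchanged, against 6.56%, 1.24%, 1.84%, 0.490% and 0.903% of lower-ranked bins and 4.46%, 0.624%, 0.986%, 0.139% and 0.495% of all bins. With 0.5 RPM added it was 5.2% in B0, against 5.12% of lower-ranked bins and 4.01% of all bins. With 1 RPM added it was 0.2% in B0, 0.4% with 10058-F4, 1.2% in T4, 1.6% in T14 as titled and 1.2% exchanged. The lower-ranked bins gave 0.267%, 0.729%, 1.44%, 2.44% and 1.58%, and all bins 0.195%, 0.393%, 0.843%, 1.48% and 1.01%. Against the genome mean the share of the chosen bins was 20.8% in B0, 9.2% with 10058-F4, 16.8% in T4 and 8.6% in T14 exchanged, against 22.7%, 10.4%, 17.4% and 9.13% of lower-ranked bins and 15.4%, 6.12%, 10.6% and 5.55% of all bins. In 1 kb around the bin centre it was 9.2% with 10058-F4, 23.4% in T4, 9.0% in T14 as titled and 12.4% exchanged, against 11.2%, 20.1%, 9.78% and 12.5% of lower-ranked bins and 8.68%, 15.5%, 7.33% and 9.54% of all bins. Thinned to 1774572 reads per library it was 2.4% in B0, 2.0% with 10058-F4, 2.6% in T4, 1.6% in T14 as titled and 2.0% exchanged. The lower-ranked bins gave 1.98%, 2.42%, 2.29%, 2.43% and 2.27%, and all bins 1.50%, 1.32%, 1.28%, 1.38% and 1.37%. Leaving out libraries, the share of the chosen bins ran from 8.8 to 15.0% in B0, 4.8 to 7.6% with 10058-F4, 7.6 to 13.2% in T4, 2.4 to 4.6% in T14 as titled and 3.6 to 6.8% exchanged. All bins gave 9.89%, 3.89%, 6.79%, 2.4% and 3.56% with no library left out. No share of lower-ranked bins is given for these choices either. Chosen from 1 B4 Myc replicate against IgG replicate 1, the level in the other was 1.28 times the genome mean in replicate 2 and 1.26 times in replicate 1, and with IgG matched by title 1.28 and 1.26 times. The lower-ranked bins had 1.23 and 1.19 times in either case. Chosen against IgG replicates 2 and 3, the levels were 1.26 and 1.15 times, against 1.23 and 1.20 times in the lower-ranked bins. Over all bins, limma called 5 higher and 0 lower as limma-trend, 0 and 0 with TMM scaling, 0 and 7 at an average of 1 read, 5 and 2 at 4 reads, 0 and 0 with both T14 libraries, 2 and 10 in 1 kb windows, and 0 higher and 0 to 11 lower with 1 library left out, the 11 without IgG replicate 2 of B4 with 10058-F4. Without the state term, the only block in the fit (no replicate block), it called 1 higher and 0 lower. Of the bins called higher, 3 as limma-trend, 2 at 4 reads, 2 in 1 kb windows and 1 without the state term were bins with Pol2. No paired analysis was possible by replicate number because the replicate numbers follow accession order and the B4 comparison rests on ratios without a test. Matching B4 Myc and IgG by title gave the folds in the report. TMM scaling moved the median log2 fold of all bins to 0.15, and unadjusted calls to 13292 higher and 4739 lower, against 9197 and 7709. The chosen bins called were 0 in every one of these fits, none being tested at an average of 4 reads. Depth is a limit, since most chosen bins held at most a few reads in any other library, so a modest excess in a given bin was not detectable. Where values moved, the cause was not tested.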

Other observations

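With every deposited read kept, the 500 bins chosen anew held 2564 reads of B4 Myc replicate 1 at 2181 distinct positions and strands, and 341 of them were among the 500 bins described above. Of the 250 and 1000 bins ranked highest by the same rule, the T4 fold of Myc over IgG was 1.23 and 1.15, against 1.31 for the 500. Leaving out B4 IgG replicate 3, the deepest control, kept 144 of the 500 chosen bins, and leaving out B4 Myc replicate 1 kept 91.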
